A study of Mus musculus with 6 samples.

Results

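Fatty acids reach the tubule cells of the kidney through membrane proteins and binding proteins, and are burned, or stored as triglyceride in lipid droplets. The 10 genes described here cover that route. They were chosen by name as genes of fatty acid uptake and of lipid droplets: Cd36, Slc27a1 and Slc27a2 for uptake, Fabp3 and Fabp4 for binding in the cytosol, Plin2 for the droplet coat, Pnpla2 and Mgll for the breakdown of stored fat, and Dgat1 and Dgat2 for its synthesis. All 10 were found, each as 1 of the 54532 genes of the deposited table, and all 10 passed the filter on low counts with 16017 genes in all.

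The libraries came from whole kidneys of male mice on a C57BL/6 background. Control mice carried KsprtTA, a doxycycline-dependent activator that works in the tubule epithelium of all segments between proximal tubule and collecting duct, and KSPAPN mice carried it together with an adiponectin gene that it switches on. Both groups ate chow with doxycycline at 600 mg/kg for 4 days, so the agent does not set the groups apart. RNA of 3 mice was pooled for each library, with 3 libraries in each group, while no age of these mice is stated in the sources used. The spread between libraries is thus a spread between pools, and the spread between single mice was not measured. The comparison asks how fat handling genes stood in kidneys whose tubules were made to produce adiponectin.

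The Control libraries held 18205023, 17921633 and 17183358 counts, and the KSPAPN libraries 20871173, 18150442 and 19821381. Adipoq, the gene of adiponectin, had 2, 0 and 2 counts in the Control libraries and 24629, 17483 and 26811 in the KSPAPN libraries, which follows the labels. In the labels the genotype of Control is given as wild type. Liver is named in the extraction text, but kidney as tissue and source. Among 10 hepatocyte markers, Cps1, the entry enzyme of the urea cycle, and Tat, a tyrosine-degrading enzyme, were at 0 FPKM in every Control library and at most 0.269 FPKM in KSPAPN, and Alb, albumin, was between 0.275 and 4.46 FPKM. FPKM are counts scaled by transcript length and library size, so they can be compared between genes. Slc34a1, the phosphate carrier of the proximal tubule, was between 980.2 and 1368 FPKM, and Umod, uromodulin of the thick ascending limb, between 542 and 795 FPKM. Of the 10 hepatocyte markers, 6 were below 1 FPKM in every library. The others were Alb, Fga, a fibrinogen chain, at 3.14 to 7.80 FPKM, Apoc3, an apolipoprotein, at 5.62 to 12.1 FPKM, and Ttr, transthyretin, at 38.3 to 145.5 FPKM. Fga and Apoc3 are named after their values were seen.

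As background, Cd36 is a scavenger receptor that takes up long-chain fatty acids, and the FATP proteins encoded by the Slc27a genes bring fatty acids in while joining them to coenzyme A. In droplets, Plin2 coats the surface, Dgat enzymes add the last fatty acid of triglyceride, and Pnpla2 (ATGL) removes the first one before Lipe and Mgll finish the breakdown. The proximal tubule relies on fatty acid oxidation for energy, and PPAR transcription factors are known to drive many genes of this route.

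The levels of the 10 genes spanned a wide range. Slc27a2 was highest, at 950.8 ± 93.0 FPKM (SD over all 6 libraries), and was number 19 among 21995 protein-coding genes by mean FPKM. Cd36 followed at 142.2 ± 24.6 FPKM, and both stood clear of the next gene in all 6 libraries. Fabp3 (61.7 ± 9.66 FPKM) and Dgat2 (61.3 ± 3.43 FPKM) overlapped in range, with Fabp3 above Dgat2 in 4 of 6 libraries. Pnpla2, at 31.7 ± 3.77 FPKM, lay apart from the genes on either side. The last 5, Slc27a1, Plin2, Dgat1, Fabp4 and Mgll, had means between 8.83 and 10.9 FPKM, and each neighbouring pair among them overlapped in range.

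Between the groups, none of the 10 genes passed the threshold of an adjusted p under 0.05. By edgeR's quasi-likelihood test with Benjamini-Hochberg adjustment over all genes tested, 0 of 10 were called, against 2.65% of all genes tested (0.393% higher and 2.25% lower). Before adjustment, 3 of 10 had an edgeR p under 0.05, Slc27a1, Pnpla2 and Fabp4, against 18.7% of all genes. That count was 6 without KSPAPN replicate 1, against 3577 of 16433 genes tested in that fit. It was 1 without KSPAPN replicate 3, against 2257 of 16408. Without Control replicate 1 it was 2, against 1977 of 16510. With the trend against GC content and length removed it was 2, against 2945 of 16017. DESeq2 called 1 of 10, Slc27a1, as lower, against 5.74% of all genes in either direction and 4.56% lower. The deposited FPKM of the groups did not overlap for the same 3 genes, against 24.4% of all genes tested. The log2 fold change was below 0 for 8 of 10, against 48.1% of all genes, and its median over the 10 was -0.18, against 0.01 over all genes tested. With scaling by total counts only, 7 of 10 were below 0 against 38.5% of all genes, and the medians were -0.11 and 0.08. Once a trend against GC content and length was removed from each library, 6 of 10 were below 0 against 42.5% of all genes, and the medians were -0.09 and 0.04.

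The number of genes called in the whole table, 424 (63 higher and 361 lower), moved with single libraries. Leaving out Control replicate 1 gave 39, Control replicate 2 gave 125 and Control replicate 3 gave 310. Leaving out KSPAPN replicate 1 gave 733, KSPAPN replicate 2 gave 276 and KSPAPN replicate 3 gave 65. Genes higher in KSPAPN made up 14.9% of the calls, 26.7% with scaling by total counts only and 25.0% with the trend against GC content and length removed. Of the 10 genes, Slc27a1 was called without Control replicate 2 (adjusted p = 0.0440 by edgeR), and Dgat1 without KSPAPN replicate 1 (adjusted p = 0.0483 by edgeR).

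**Figure D1:**
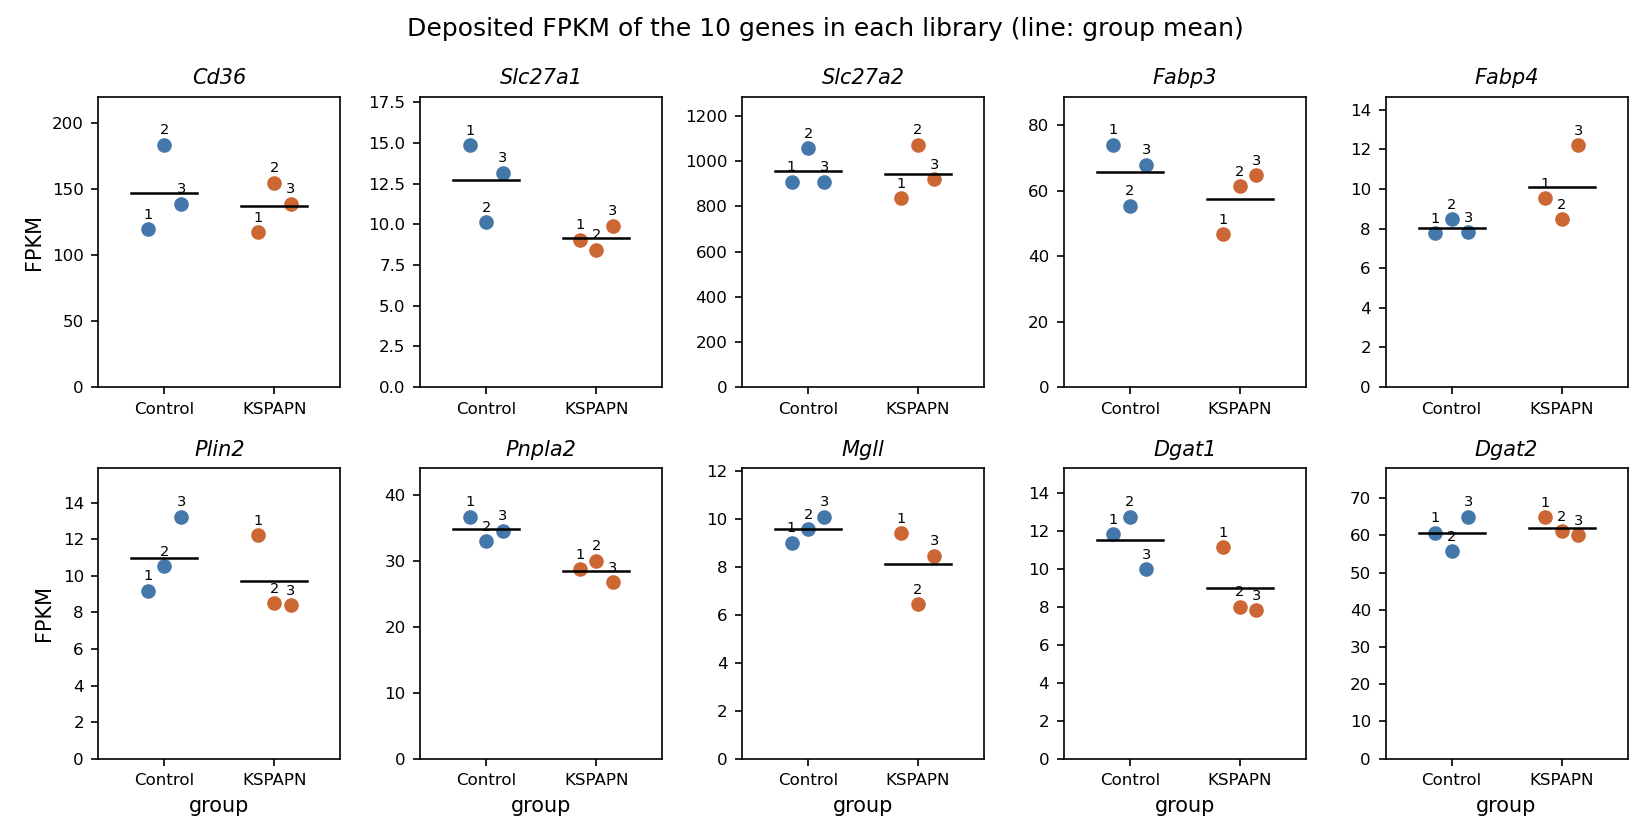
Deposited FPKM (vertical axis, from 0, with its own scale for each gene) of the 10 genes in the 3 Control and 3 KSPAPN libraries. Numbers give the replicate and lines the group means. Slc27a1, Pnpla2 and Fabp4 are the 3 genes whose groups do not overlap.

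Uptake genes. Slc27a1, or FATP1, is the fatty acid transport protein known from muscle and fat, and lies at chr8:71568882-71587302 (GRCm38, plus strand; ENSMUSG00000031808). Its level was 14.9, 10.1 and 13.2 FPKM in the Control libraries and 9.05, 8.44 and 9.91 FPKM in the KSPAPN libraries. Every KSPAPN library lay below every Control library, with a gap of less than 1 FPKM between Control replicate 2 and KSPAPN replicate 3. The log2 fold change was -0.47 ± 0.14 (SE), with a 95% interval from -0.77 to -0.17. It missed the threshold with edgeR (unadjusted p = 0.00564, adjusted p = 0.0981) and passed it with DESeq2 (adjusted p = 0.0374). Over all alternatives run, its adjusted p lay between 0.00147 and 0.360.

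Slc27a2, or FATP2, is the transport protein and very long-chain acyl-CoA synthetase of liver and kidney. It took between 96.2% and 98.0% of the summed FPKM of the 6 Slc27a genes in every library, and Slc27a1 between 0.771% and 1.58%. Levels were 908.8, 1057 and 909.4 FPKM in Control and 837.3, 1072 and 920.5 FPKM in KSPAPN. The groups overlapped, and replicate 2 was the highest of each. Its log2 fold change was -0.02, with a 95% interval from -0.30 to 0.26 (edgeR), and its sign turned with scaling by total counts (0.05) and with the trend against GC content and length removed (0.07). The FPKM ratio of Slc27a2 to Slc27a1 was 61.1, 104 and 69.0 in Control and 92.5, 127 and 92.9 in KSPAPN. The groups overlapped through Control replicate 2, and an exact permutation test over the libraries gave p = 0.3, or 0.4 adjusted over 4 gene pairs. With 3 libraries against 3 that test cannot go below 0.1.

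Cd36 measured 119.5, 183.5 and 138.8 FPKM in Control and 117.5, 154.8 and 139.0 FPKM in KSPAPN. The libraries of the groups interleaved. For Cd36 the log2 fold change was -0.10 with a 95% interval from -0.44 to 0.25 (edgeR), and its sign turned without Control replicate 2 (0.09) and without KSPAPN replicate 1 (0.01). With the trend against GC content and length removed it was -0.21.

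Binding proteins. Fabp4, the fatty acid binding protein of adipocytes, macrophages and capillary endothelium, lies at chr3:10204088-10208576 (GRCm38, minus strand; ENSMUSG00000062515). It measured 7.78, 8.47 and 7.82 FPKM in Control and 9.54, 8.48 and 12.2 FPKM in KSPAPN. All KSPAPN libraries lay above all Control libraries, although Control replicate 2 and KSPAPN replicate 2 were nearly level. Its log2 fold change was 0.34 ± 0.13 (SE), with a 95% interval from 0.04 to 0.63, and it missed the threshold with edgeR (unadjusted p = 0.0291, adjusted p = 0.209) and with DESeq2 (adjusted p = 0.210). It was 0.18 without KSPAPN replicate 3 and 0.25 with the trend against GC content and length removed.

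Because Fabp4 is a marker of several cell types, their marker lists are given with it. In bulk kidney, fewer cells of a type and less RNA per cell cannot be told apart. For comparison with their counts, edgeR called 2.65% of all genes tested and DESeq2 5.74%. An unadjusted edgeR p under 0.05 was found for 18.7%, and the median log2 fold change was 0.01. Of 12 endothelial markers, edgeR called 0, with 0 at an unadjusted p under 0.05 and 0 called by DESeq2, and their median log2 fold change was -0.01. Their summed level was 165, 118 and 145 FPKM in Control and 145, 114 and 137 FPKM in KSPAPN, with Plvap, a protein of capillary fenestrae, the most abundant. The lowest library of each group was replicate 2. Plvap had the lowest log2 fold change of the list, -0.27 with a 95% interval from -0.64 to 0.11, and Ehd3, a membrane-trafficking protein of glomerular endothelium, the highest, 0.18 with a 95% interval from -0.19 to 0.54 (edgeR). Over the fits that leave out 1 library Plvap ran from -0.43 to -0.11, and it was -0.04 with the trend against GC content and length removed, and Ehd3 was 0.01 without KSPAPN replicate 3 and 0.30 without KSPAPN replicate 1. Of 10 macrophage markers, edgeR called 0, with 0 at an unadjusted p under 0.05 and 0 called by DESeq2. Csf1r, the receptor of macrophage growth factor, led them in abundance, and the summed level was 54.8, 61.2 and 59.9 FPKM in Control and 72.3, 47.6 and 53.8 FPKM in KSPAPN. KSPAPN replicate 1 was the highest, in part through Lyz2, lysozyme, at 18.0 FPKM against 7.22 to 11.5 FPKM in the other 5 libraries. Lyz2 had the highest log2 fold change of the list, 0.35 with a 95% interval from -0.29 to 0.998 (edgeR), or -0.09 without KSPAPN replicate 1, and Csf1r the lowest, -0.19 with a 95% interval from -0.38 to 0.01.

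Among 15 adipocyte markers, 4 were too low to be tested, Plin1, Lep, Retn and Adrb3. Leptin RNA (Lep) was at 0 FPKM in 5 of 6 libraries and at 0.0128 FPKM in KSPAPN replicate 1, and Plin1, the droplet coat of adipocytes, was at most 0.118 FPKM. Of the 15, 10 were below 1 FPKM in every library, and Cfd, Car3, Lipe, Slc2a4 and Lpl were not. Lipe, the hormone-sensitive lipase, was at 2.92 to 3.96 FPKM and Slc2a4, the insulin-dependent glucose carrier, at 7.73 to 10.5 FPKM, both named after their values were seen. The summed level of the list was 105.8, 158.7 and 127.7 FPKM in Control and 57.9, 78.4 and 102.9 FPKM in KSPAPN. Most of it was Lpl, lipoprotein lipase, which frees fatty acids from circulating triglyceride and is also made in kidney, and without Lpl the sum was between 15.03 and 22.9 FPKM. Lpl was at 82.9, 137.2 and 105.3 FPKM in Control and 42.9, 61.7 and 86.7 FPKM in KSPAPN. Only KSPAPN replicate 3 lay within the Control range. For Lpl the log2 fold change was -0.76 with a 95% interval from -1.29 to -0.24, and it missed the threshold with edgeR (unadjusted p = 0.00897, adjusted p = 0.122) and DESeq2 (adjusted p = 0.228). By edgeR it passed with no filter on low counts (adjusted p = 1.84e-10), in the replicate block fit (0.0310) and in that fit with the trend against GC content and length removed (0.0165), and the highest adjusted p over all alternatives was 0.295. In the edgeR fit used for all lists 1 gene passed, Car3, carbonic anhydrase of fat and muscle, which fell by 2.80 on the log2 scale (adjusted p = 0.0114 by edgeR) and missed the threshold without Control replicate 1 (adjusted p = 0.0529 by edgeR) and with limma on log2(FPKM + 0.1) (0.0508), at log2 fold changes of -2.87 and -2.79. DESeq2 called Car3 alone, and 2 of the 11 tested had an unadjusted edgeR p under 0.05. Across all genes tested the shares were 2.65% by edgeR, 5.74% by DESeq2 and 18.7% at an unadjusted edgeR p. Cfd, the adipocyte protease adipsin, had the highest log2 fold change, 0.46 with a 95% interval from -0.55 to 1.48 (edgeR). The value of Cfd ran from 0.16 to 0.76 over the fits that leave out Control replicate 2 or 1, and was 0.73 with the trend against GC content and length removed. Lpl also belongs to the list of uptake genes, and Plin1, Cidec and Plin4 to that of droplet genes. Lipe is also in the list of lipolysis, and Pparg in that of PPAR genes. The part of these cell types in the values of Fabp4 was not tested.

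Fabp3, the heart-type binding protein, took between 78.4% and 84.4% of the summed FPKM of Fabp1 to Fabp7, and Fabp4 between 8.70% and 16.2%. Fabp3 was at 74.0, 55.5 and 68.0 FPKM in Control and 46.6, 61.4 and 64.7 FPKM in KSPAPN. KSPAPN replicate 1 was the lowest of all, and the other libraries overlapped. Its log2 fold change was -0.19 with a 95% interval from -0.50 to 0.12 (edgeR). It was -0.05 without KSPAPN replicate 1, -0.10 without Control replicate 1, -0.30 without Control replicate 2 and 0.03 with the trend against GC content and length removed. A processed pseudogene of Fabp3 is annotated, and reads that match both could be split. The ratio of Fabp3 to Fabp4 was 9.52, 6.56 and 8.70 in Control and 4.89, 7.24 and 5.29 in KSPAPN (exact permutation p = 0.2, adjusted p = 0.4).

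The wider list of 18 uptake and binding genes held 13 that could be tested. Of these, 1 was higher, 0 were lower and 12 missed the threshold with edgeR, while 6 had an unadjusted p under 0.05, and the median log2 fold change was -0.13. Of all genes tested, edgeR called 2.65% and DESeq2 5.74%, and 18.7% had an unadjusted edgeR p under 0.05. DESeq2 called 5, with 1 higher, Scp2, and 4 lower, Fabp7, Got2, Vamp8 and Vldlr, the last 3 named after their values were seen. The gene that rose with edgeR was Scp2, sterol carrier protein, which binds fatty acyl-CoA and sterols and acts in peroxisomal oxidation. It was at 281.3, 383.9 and 344.5 FPKM in Control and 512.0, 569.8 and 489.6 FPKM in KSPAPN. No Control library reached the lowest KSPAPN library, and the groups differed by a log2 fold change of 0.64 ± 0.13 (SE; adjusted p = 0.0311 by edgeR). Leaving out Control replicate 1 (adjusted p = 0.146), 2 (0.0516) or 3 (0.0814), or KSPAPN replicate 2 (0.0811) or 3 (0.0986), lost the call by edgeR, while the log2 fold change stayed between 0.53 and 0.75. Pseudogenes of Scp2 are annotated, so its counts are uncertain to that extent. Fabp7, the brain-type binding protein, had the lowest log2 fold change of the list, -1.08 with a 95% interval from -1.81 to -0.35, at an adjusted p of 0.114 by edgeR and 0.0360 by DESeq2. Over all alternatives run, the adjusted p of Fabp7 lay between 0.00293 and 0.402.

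Once inside, long-chain fatty acids are activated by acyl-CoA synthetases of the Acsl family. Of 5 such genes, 4 were tested and edgeR called 0, with 0 at an unadjusted p under 0.05 and 0 by DESeq2. In comparison, edgeR called 2.65% of all genes tested and DESeq2 5.74%, and 18.7% had an unadjusted edgeR p under 0.05. All 4 log2 fold changes of the Acsl genes lay above 0, with a median of 0.09. For all genes tested, 48.1% lay below 0 and the median was 0.01. The value of the most abundant Acsl gene, Acsl1, was -0.01 with the trend against GC content and length removed. Acsl1 had a log2 fold change of 0.08 with a 95% interval from -0.16 to 0.33. The highest was that of Acsl4, 0.25 with a 95% interval from -0.02 to 0.51, and the lowest that of Acsl5, 0.06 with a 95% interval from -0.17 to 0.29 (all by edgeR). With single libraries left out, Acsl1 was between 0.00 and 0.21, Acsl4 between 0.16 and 0.37, and Acsl5 between -0.01 and 0.15. Acsl4 was 0.08 with the trend against GC content and length removed.

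**Figure D2:**
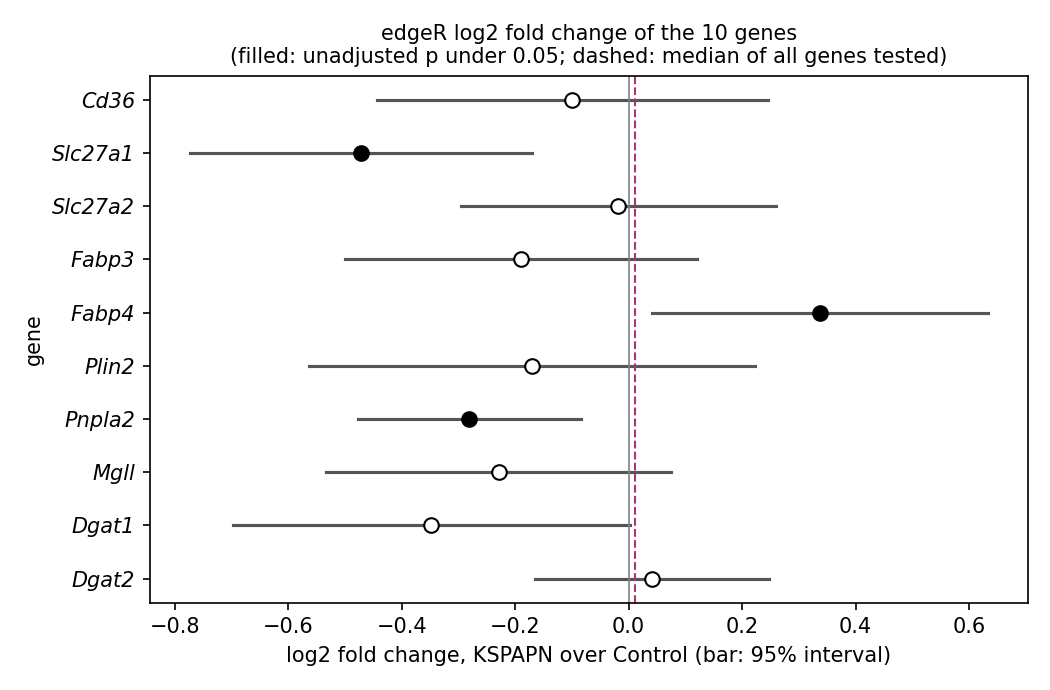
Log2 fold change of KSPAPN over Control (horizontal axis, edgeR) for each of the 10 genes, with 95% intervals as bars. Filled points have an unadjusted p under 0.05, and the dashed line is the median of all genes tested, 0.01. The sign of Slc27a2 turns with scaling by total counts and with the trend against GC content and length removed. That of Fabp3 turns with the trend removed but not with total counts. With single libraries left out, the signs of Cd36, Slc27a2 and Dgat2 turn.

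The droplet coat. Plin2 measured 9.19, 10.5 and 13.3 FPKM in Control and 12.2, 8.51 and 8.38 FPKM in KSPAPN. KSPAPN replicate 1 lay among the Control libraries, and the other KSPAPN libraries below them. Its log2 fold change was -0.17 with a 95% interval from -0.56 to 0.22 (edgeR), and it was -0.36 without KSPAPN replicate 1 and -0.01 without Control replicate 3. Leaving out Control replicate 1 gave -0.29, KSPAPN replicate 2 gave -0.08 and KSPAPN replicate 3 gave -0.07, and removing the trend against GC content and length gave -0.03. Plin3, a coat protein found in most cells, was the larger share of the 5 perilipins, between 47.7% and 59.8% in each library, and Plin2 held between 32.7% and 42.7%.

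Of 15 genes of droplet coats and budding, 13 were tested, and 2 fell while 11 missed the threshold with edgeR. DESeq2 called the same 2 genes as lower, and 4 had an unadjusted edgeR p under 0.05. Over all genes tested, edgeR called 2.65% and DESeq2 5.74%, and 18.7% had such an unadjusted p. The median log2 fold change of the list was -0.07, against 0.01 over all genes tested. Fitm1, which helps triglyceride to bud into droplets from the endoplasmic reticulum, was at 32.2, 32.0 and 25.2 FPKM in Control and 12.7, 13.2 and 16.5 FPKM in KSPAPN. The groups stood well apart. The log2 fold change was -1.07 ± 0.15 (SE; adjusted p = 0.00865 by edgeR), and the call was lost without Control replicate 1 (adjusted p = 0.0534 by edgeR) and with the trend against GC content and length removed (adjusted p = 0.0527 by edgeR), at log2 fold changes of -1.02 and -0.77.

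Hsd17b11, a dehydrogenase that sits on droplets and the most abundant gene of that list, was at 113.4, 129.5 and 108.6 FPKM in Control and 54.6, 77.8 and 80.4 FPKM in KSPAPN. KSPAPN replicate 1 was the lowest, and the groups did not overlap. Its log2 fold change was -0.72 ± 0.14 (SE; adjusted p = 0.0282 by edgeR). It lost the call when Control replicate 1 (adjusted p = 0.113), 2 (0.0948) or 3 (0.0526) or KSPAPN replicate 3 (0.0719) was left out, by edgeR, with log2 fold changes between -0.81 and -0.64. The highest log2 fold change of the list was that of Cidea, a droplet protein of brown fat, 1.25 with a 95% interval from 0.16 to 2.34. Its level was below 1.5 FPKM in every library, and it missed the threshold (adjusted p = 0.202 by edgeR).

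Breakdown of stored fat. Pnpla2 lies at chr7:141455198-141460743 (GRCm38, plus strand; ENSMUSG00000025509). It measured 36.8, 33.0 and 34.6 FPKM in Control and 28.8, 30.1 and 26.8 FPKM in KSPAPN. All KSPAPN libraries were below all Control libraries, and the spread within each group was small, with an SD of 1.87 FPKM in Control and 1.64 FPKM in KSPAPN. The log2 fold change was -0.28 ± 0.09 (SE), with a 95% interval from -0.48 to -0.08, and it missed the threshold with edgeR (unadjusted p = 0.00942, adjusted p = 0.124) and with DESeq2 (adjusted p = 0.122). With the trend against GC content and length removed it was -0.14.

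Mgll, which splits the last fatty acid from glycerol, measured 9.002, 9.57 and 10.1 FPKM in Control and 9.40, 6.44 and 8.47 FPKM in KSPAPN. KSPAPN replicate 2 was the lowest, and KSPAPN replicate 1 lay within the Control range. For Mgll the log2 fold change was -0.23 with a 95% interval from -0.53 to 0.08 (edgeR). It was -0.08 without KSPAPN replicate 2, and -0.17 with the trend against GC content and length removed. The FPKM ratio of Mgll to Pnpla2 was between 0.214 and 0.327 in all libraries and did not separate the groups (exact permutation p = 1.0).

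Among 9 other genes of lipolysis, all tested, 1 fell and 8 missed the threshold with edgeR, and the median log2 fold change was -0.12. DESeq2 called 3, with G0s2 and Faah lower and Abhd6 higher, Faah being named after its values were seen, and 3 had an unadjusted edgeR p under 0.05. The shares over all genes tested were 2.65% by edgeR, 5.74% by DESeq2 and 18.7% at an unadjusted edgeR p, with a median of 0.01. G0s2 encodes a protein that binds Pnpla2 and blocks it. It was at 23.2, 23.6 and 49.7 FPKM in Control and 10.2, 12.1 and 13.9 FPKM in KSPAPN. Control replicate 3 was far above the other Control libraries, and every KSPAPN library was below all of them. The log2 fold change was -1.41 ± 0.28 (SE; adjusted p = 0.0297 by edgeR), and -0.95 without Control replicate 3 (adjusted p = 0.0298 by edgeR). The call was lost without Control replicate 1 (adjusted p = 0.0626) and without KSPAPN replicate 2 (0.0695) or 3 (0.0895), by edgeR, with scaling by total counts (0.0532) and with the trend against GC content and length removed (0.0680). For G0s2 the log2 fold change was between -1.60 and -0.95 with single libraries left out, -1.35 with total counts and -1.18 with the trend removed. An enzyme and its inhibitor thus both had lower mean levels in KSPAPN, and the inhibitor passed the test while the enzyme missed it. Whether their changes differ was not tested. Abhd6, a monoacylglycerol lipase, had the highest log2 fold change of the list, 0.45 with a 95% interval from 0.17 to 0.74 (adjusted p = 0.0970 by edgeR and 0.0473 by DESeq2). Over all alternatives run, the adjusted p of Abhd6 lay between 0.0356 and 0.275. Lipa, the lysosomal lipase, was the most abundant, with a log2 fold change of -0.07 and a 95% interval from -0.60 to 0.46, and it was 0.22 without Control replicate 2 and 0.01 without KSPAPN replicate 1.

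Synthesis of triglyceride. Dgat1 measured 11.8, 12.8 and 9.98 FPKM in Control and 11.2, 8.02 and 7.82 FPKM in KSPAPN. KSPAPN replicate 1 lay within the Control range and the other KSPAPN libraries below it. For Dgat1 the log2 fold change was -0.35 ± 0.16 (SE), with a 95% interval from -0.70 to 0.00 (unadjusted p = 0.0515, adjusted p = 0.271 by edgeR). Without KSPAPN replicate 1 it was -0.53, and -0.19 with the trend against GC content and length removed. Dgat2 stayed within a narrow range, from 55.8 to 65.1 FPKM over all libraries, and its log2 fold change was 0.04 with a 95% interval from -0.17 to 0.25 (edgeR) and a sign that turned without Control replicate 2 (-0.02). With the trend against GC content and length removed it was 0.19 (unadjusted p = 0.0364, adjusted p = 0.238 by edgeR), and over all alternatives run its adjusted p lay between 0.190 and 0.970. Dgat2 held between 81.4% and 88.5% of the summed FPKM of both genes. The ratio of Dgat2 to Dgat1 was 5.14, 4.37 and 6.52 in Control and 5.81, 7.63 and 7.69 in KSPAPN, with only KSPAPN replicate 1 inside the Control range (exact permutation p = 0.2, adjusted p = 0.4).

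Of 18 genes of glycerolipid and sterol ester synthesis, 17 were tested, and 1 fell while 16 missed the threshold with edgeR. DESeq2 called 3, with Gpam and Agpat3 lower and Soat1 higher, Agpat3 being named after its values were seen. An unadjusted edgeR p under 0.05 was found for 4, and the median log2 fold change was -0.08. All genes tested gave 2.65% called by edgeR, 5.74% by DESeq2 and 18.7% at an unadjusted edgeR p, with a median of 0.01. Gpam, the mitochondrial acyltransferase that starts glycerolipid synthesis, was at 22.4, 23.4 and 22.5 FPKM in Control and 13.9, 14.8 and 15.3 FPKM in KSPAPN. The groups were tight and far apart. The log2 fold change was -0.63 ± 0.08 (SE; adjusted p = 0.00738 by edgeR), and it passed with each single library left out. Soat1, which makes cholesterol esters, had the highest log2 fold change of the list, 0.51 with a 95% interval from 0.25 to 0.78, and missed the threshold with edgeR (adjusted p = 0.0522) while passing it with DESeq2 (adjusted p = 0.00979). Over all alternatives run, the adjusted p of Soat1 lay between 0.00148 and 0.193. Gk, glycerol kinase, was the most abundant, with a log2 fold change of -0.23 and a 95% interval from -0.57 to 0.10. Gk was -0.06 without KSPAPN replicate 1 and -0.36 with the trend against GC content and length removed.

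**Figure D3:**
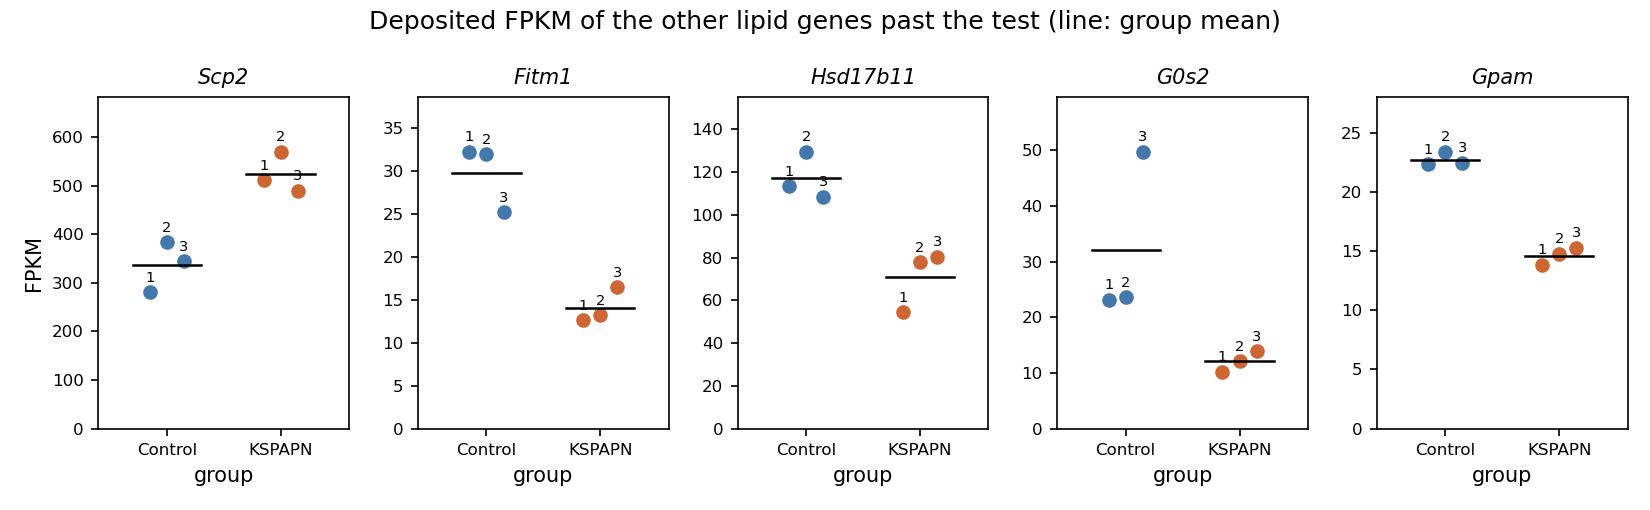
Deposited FPKM (vertical axis, from 0, with its own scale for each gene) of the 5 other genes of uptake, binding, droplets, breakdown and synthesis that passed an adjusted p under 0.05 with edgeR, in 3 Control and 3 KSPAPN libraries. Numbers give the replicate and lines the group means. Scp2 is higher in KSPAPN and Fitm1, Hsd17b11, G0s2 and Gpam are lower, with no overlap between the groups.

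Taking these 5 lists as 1, with each gene once and the 10 genes left out, 56 of 65 genes were tested. With edgeR, 4 were lower and 1 was higher, or 8.93% called against 2.65% of all genes tested, and the median log2 fold change was -0.07 against 0.01. With DESeq2, 10 were lower and 3 were higher, or 23.2% called against 5.74% of all genes tested. An unadjusted edgeR p under 0.05 was found for 17 of 56, against 18.7% of all genes tested. All lists in this text were chosen with earlier results of these data known, so such shares are no test of a list. Of the genes called by edgeR here, only Gpam passed with each single library left out. With limma on log2(FPKM + 1), Scp2, Hsd17b11 and G0s2 missed the threshold (adjusted p = 0.0794, 0.0754 and 0.0811). The plot of the lists shows each tested gene with its list median.

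PPAR genes and their known targets were counted for comparison. Of 20 such genes, 17 were tested, 4 fell, 0 rose and 13 missed the threshold with edgeR, and the median log2 fold change was -0.43, the lowest of the gene lists of fat handling. DESeq2 called 6, all lower, and 10 had an unadjusted edgeR p under 0.05. Of all genes tested, 2.65% were called by edgeR and 5.74% by DESeq2, and 18.7% had an unadjusted edgeR p under 0.05. The genes that fell with edgeR were Cyp4a14 (log2 fold change -2.56, adjusted p = 0.00613 by edgeR) and Cyp4a10 (-0.73, 0.00741), which hydroxylate fatty acids at their end, Acaa1b (-1.02, 0.00581), a peroxisomal thiolase, and Acadm (-0.72, 0.0214), the medium-chain acyl-CoA dehydrogenase. The call of Acadm was lost without Control replicate 1 (adjusted p = 0.0765), Control replicate 2 (0.0746) or KSPAPN replicate 3 (0.0719), all by edgeR, and with limma on log2(FPKM + 1) (0.0615). In the fits without those libraries its log2 fold change was -0.77, -0.63 and -0.79. Cyp4a10, Cyp4a14 and Acaa1b have close relatives in the genome, and reads shared with them could be split. The highest log2 fold change of the list was that of Acot1, an acyl-CoA thioesterase, 0.12 with a 95% interval from -0.18 to 0.42, or -0.02 without KSPAPN replicate 1.

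**Figure D4:**
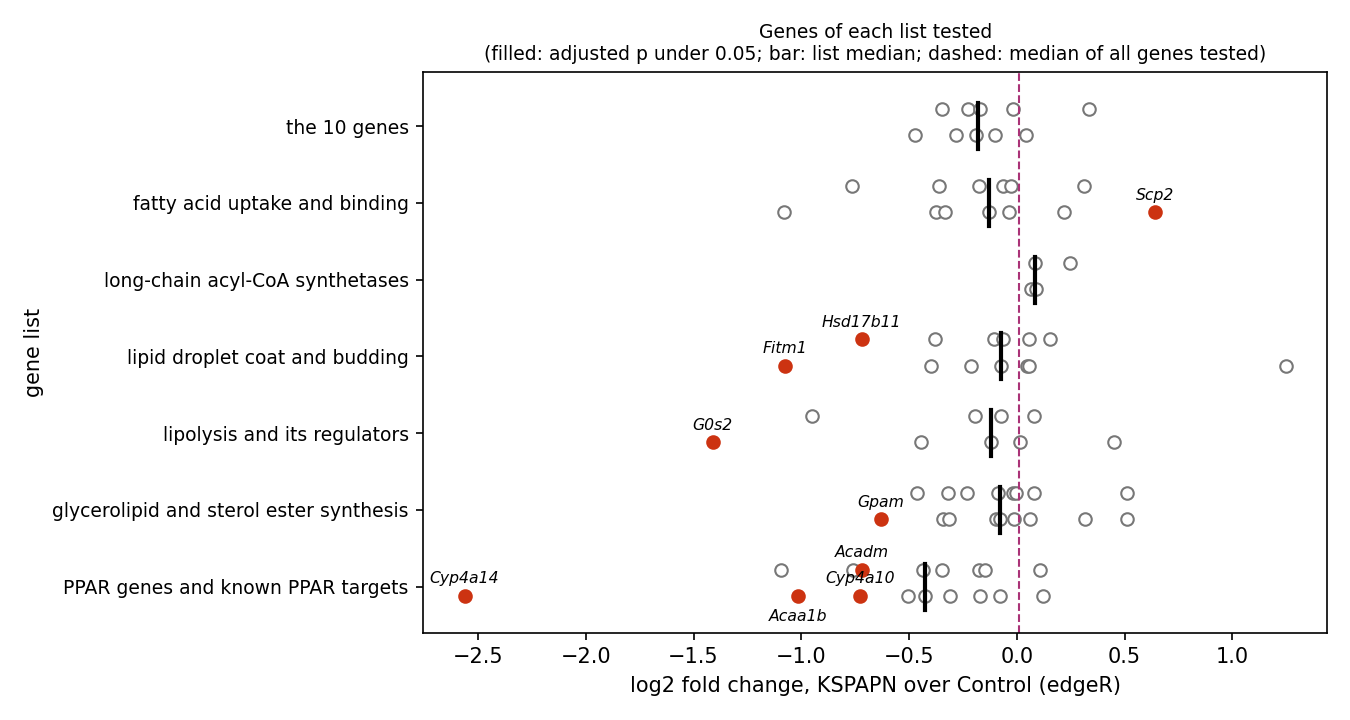
Log2 fold change of KSPAPN over Control (horizontal axis, edgeR) for the tested genes of the 10 genes and of the lists of fat handling (vertical axis), without the cell type markers. Filled points passed an adjusted p under 0.05, bars are list medians and the dashed line is the median of all genes tested, 0.01. None of the 10 genes is filled, and of the filled points shown only Scp2 lies above 0.

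The nephron segments differ in fat handling, so their markers are given beside these genes. Of 12 proximal tubule markers, 2 fell, 0 rose and 10 missed the threshold with edgeR, and 11 of 12 had a log2 fold change below 0 (median -0.24). DESeq2 called 3, all lower, adding Slc13a3, named after its values were seen, and the same 3 had an unadjusted edgeR p under 0.05. Of all genes tested, 2.65% were called by edgeR, 5.74% by DESeq2 and 18.7% at an unadjusted p, and 48.1% had a log2 fold change below 0, with a median of 0.01. The same shares apply to the marker lists below. The summed level was 3162, 3007 and 2687 FPKM in Control and 2291, 2347 and 2476 FPKM in KSPAPN, with Slc34a1 the most abundant and no defining marker at 0. The sums of KSPAPN were all below those of Control. Slc34a1 had a log2 fold change of -0.15 with a 95% interval from -0.44 to 0.14 (edgeR), or -0.06 without Control replicate 1, and -0.08 both with scaling by total counts and with the trend against GC content and length removed. Slc22a6, the organic anion transporter, fell by 0.46 on the log2 scale (adjusted p = 0.0388 by edgeR), and Slc7a13, an amino acid transporter of the last proximal segment, fell by 1.46 (adjusted p = 0.0259 by edgeR). Leaving out single libraries took Slc22a6 to adjusted p between 0.0819 and 0.144 without any library but KSPAPN replicate 1, and Slc7a13 to 0.113 when Control replicate 1 was left out, 0.0770 for Control replicate 2 and 0.0972 for KSPAPN replicate 3 (edgeR). Scaling by total counts took Slc22a6 to 0.0521 by edgeR, and both missed the threshold with limma on log2(FPKM + 1), at 0.0697 and 0.0782. With single libraries left out, the log2 fold change of Slc22a6 was between -0.50 and -0.40 and that of Slc7a13 between -1.73 and -1.16. The highest of the list was Slc5a12, the lactate carrier, with a log2 fold change of 0.10 and a 95% interval from -0.45 to 0.66, which was -0.14 without KSPAPN replicate 3 and 0.41 without KSPAPN replicate 1.

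Of 11 markers of the thick limb, distal tubule and collecting duct, 1 rose, 0 fell and 10 missed the threshold with edgeR, and the median was 0.08. DESeq2 called 2, Slc12a1 as higher and Slc4a1, named after its values were seen, as lower, and 4 had an unadjusted edgeR p under 0.05. Their summed level was 1586, 1389 and 1457 FPKM in Control and 1880, 1341 and 1409 FPKM in KSPAPN. KSPAPN replicate 1 was the highest, and the others overlapped. Its sum was high in part through the marker Aqp2, named after its values were seen. Aqp2 was at 537.0 FPKM in that library and at 227.3 to 356.0 FPKM in the others. Slc12a1, the salt carrier of the thick limb, rose by 0.52 on the log2 scale (adjusted p = 0.0437 by edgeR). With Control replicate 1 (adjusted p = 0.193), 2 (0.143) or 3 (0.0744) or KSPAPN replicate 2 (0.0868) or 3 (0.0944) left out the call was lost by edgeR, as it was with the trend against GC content and length removed (0.0748) and with limma on log2(FPKM + 1) (0.0774). With single libraries left out, the log2 fold change of Slc12a1 was between 0.45 and 0.59, and with the trend removed it was 0.46. Umod was the most abundant, with a log2 fold change of -0.04 and a 95% interval from -0.37 to 0.28 whose sign turned with scaling by total counts (0.03) and with the trend against GC content and length removed (0.05). Pvalb, of the distal convoluted tubule, was the lowest of the list at -0.89 with a 95% interval from -2.03 to 0.25. It was at 2.10 FPKM in KSPAPN replicate 1 and at 12.2 to 25.4 FPKM in the other libraries, and its log2 fold change was -0.38 without that library and -1.43 without KSPAPN replicate 2.

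Of 6 glomerular markers, edgeR called 0, with 1 at an unadjusted p under 0.05, and DESeq2 called 0. All 6 log2 fold changes were above 0, with a median of 0.32, but that of Nphs1 was -0.19 without Control replicate 2 and -0.14 without KSPAPN replicate 3. The summed level was 56.4, 39.6 and 60.6 FPKM in Control and 57.3, 56.6 and 78.2 FPKM in KSPAPN, with Podxl the most abundant (log2 fold change 0.24, 95% interval from -0.11 to 0.60) and Ptpro the highest by log2 fold change, 0.52 with a 95% interval from -0.01 to 1.04. Leaving out single libraries, Podxl was between 0.08 and 0.35 and Ptpro between 0.26 and 0.70. Of the 10 hepatocyte markers, 7 were tested and 1 fell, Ttr, transthyretin, the most abundant (log2 fold change -1.17, adjusted p = 0.0388 by edgeR). DESeq2 called the same gene, and 2 had an unadjusted edgeR p under 0.05. Its call was lost without Control replicate 1 (adjusted p = 0.175), Control replicate 2 (0.109) or KSPAPN replicate 3 (0.148) and with scaling by total counts (0.0567), by edgeR, and with limma on log2(FPKM + 1) (0.109). With single libraries left out, the log2 fold change of Ttr was between -1.42 and -0.96. The summed level was 149, 165 and 86.0 FPKM in Control and 60.2, 84.5 and 54.2 FPKM in KSPAPN, and without Ttr it was between 9.93 and 21.2 FPKM. Alb had the highest log2 fold change, 0.55 with a 95% interval from -0.96 to 2.07 (edgeR), or -0.05 with limma on log2(FPKM + 0.1), 0.17 without KSPAPN replicate 2 and 1.12 without KSPAPN replicate 1. The part of the nephron segments and cell types in the values of the 10 genes was not tested.

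The genes whose pattern was most like that of Slc27a1, the gene of the 10 with the smallest p, were Slc6a8, Sema4a and Tmem203. Their Pearson r with Slc27a1 over the 6 libraries was 0.987, 0.986 and 0.983 on log2 CPM (counts scaled by library size), the highest of 7091 genes with a mean of at least 5 FPKM. In all, 94 genes had r above 0.9. The libraries share their group labels and their depth with these values. None of the 3 passed the test, with adjusted p = 0.146, 0.340 and 0.511 by edgeR.

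Sequence upstream of RefSeq starts was searched, because PPAR factors bind a half-site AGGTCA, in pairs with 1 base between. RefSeq promoter windows of 300 bases (GRCm38.p6, 250 bases before to 50 after a start) were at hand for 7 of the 10 genes, with 10 windows. Fabp4, Dgat1 and Dgat2 had none. The pair of half-sites (AGGTCA, any base, AGGTCA, on either strand) was in 0 of these windows and in 0.0396% of all 32851 windows. The single half-site, on either strand, was in 3 of the 10 windows, those of Cd36, Slc27a2 and Plin2, and in 16.3% of all windows. Of the 5 called genes above, it was in windows of Scp2 and Gpam. These stretches, 26 bases each, are printed to show the letters found, 5′ to 3′ on the gene's strand, with the half-site or its reverse complement in capitals. They lie at chr5:17836109-17836134 (Cd36, minus strand), chr2:126552794-126552819 (Slc27a2, plus strand), chr4:86670262-86670287 (Plin2, minus strand), chr4:108118641-108118666 (Scp2, minus strand) and chr19:55099658-55099683 (Gpam, minus strand). The stretches of Cd36, Slc27a2, Scp2 and Gpam lie inside the annotated span of the gene, at a RefSeq start within it. Only that of Plin2 lies before the annotated gene.

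Cd36: ctgcactttaTGACCTgagattttca
Slc27a2: accacgccttTGACCTtttcaacgtg
Plin2: tcaggaccccTGACCTaagtcagaca
Scp2: ctaacacagtAGGTCAaaagaaccca
Gpam: aggctagctgAGGTCAcgcaagggag

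The half-site is thus present in a window of Scp2, which rose, of Gpam, which fell, and of Cd36, Slc27a2 and Plin2, which missed the threshold. A match is a run of letters and says nothing of binding. A second motif, the GC box GGGCGG, was found on either strand in 8 of the 10 windows, which belong to 6 of the 7 genes (all but Fabp3), and in 35.7% of all windows. The 250 bases before the start of Slc27a2, whose groups overlapped, hold the GC box on both strands. Those of Pnpla2, a breakdown enzyme that missed the threshold, do so too (chr7:141454938-141455187, GRCm38.p6, plus strand), in capitals here:
Pnpla2: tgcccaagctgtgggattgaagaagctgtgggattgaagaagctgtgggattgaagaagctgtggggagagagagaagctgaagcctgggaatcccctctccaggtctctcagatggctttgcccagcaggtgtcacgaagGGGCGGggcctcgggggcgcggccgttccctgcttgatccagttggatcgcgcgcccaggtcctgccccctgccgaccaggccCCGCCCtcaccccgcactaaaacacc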

How the data were processed

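RNA of 6 kidney libraries, enriched by the authors for mRNA with oligo(dT) beads, was measured by sequencing. The authors deposited whole-number counts per gene, without normalization, and FPKM, scaled by gene length and library size. The submitters' processing notes name STAR 2.5, TopHat, HTSeq 0.6.1, DESeq2 and edgeR without roles. Genome build, annotation and strandedness were not given in the sources used, so overlapping genes on opposite strands cannot be told apart. Depth was between 17183358 and 20871173 counts per library, and intervals cover the spread between libraries.

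Libraries were grouped by their labels, and identifiers were matched to GENCODE M21 (54495 of 54532 genes). Counts were fitted with edgeR 4.0.16 in R 4.3.3 (TMM factors, minimum count 10, minimum total 15, quasi-likelihood test, two-sided, Benjamini-Hochberg adjustment over 16017 genes, threshold 0.05). FPKM ratios were compared by an exact permutation test, two-sided, with 20 arrangements. Each pool counted as a replicate, per the labels. Libraries of a group were checked for being copies of each other, and their counts differed with a chi-square per degree of freedom of 11.0 to 35.9 against counting noise alone. The edgeR, DESeq2 and limma fits were tested on simulated data, where the changes put in were larger than those of the 10 genes. RefSeq promoter windows gave sequences: 20-base runs of 14 of the 16 windows used were found in a transcript of the gene as given and of 0 when reversed.

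Alternatives were DESeq2 1.42.0, RLE factors, total counts only, TMM without Adipoq and mitochondrially encoded genes, no filter on low counts, limma 3.58.1 on log2(FPKM + 1) and log2(FPKM + 0.1), the replicate number as a block, a spline trend against GC content and length (5 degrees of freedom, fitted above a log2 CPM of 3, prior count 2) removed with and without that block, and each library left out. Named genes were the 10 genes, Adipoq, the genes of each other list that passed, were most abundant or had the lowest or highest log2 fold change, and the 3 genes most like Slc27a1. Not every gene under this rule is named in the text. The 10 genes and the lists were chosen with earlier results of these data known. Python 3.11.15, pandas 2.3.3, scipy 1.17.1 and matplotlib 3.10.9 were used for tables and plots. Raw reads were not used here.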

Additional observations from a re-analysis of the deposited data

How the results depend on the processing

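The 10 genes gave 0 higher calls under every alternative run. Lower calls were 0, except 1, Slc27a1, with DESeq2, with no filter on low counts and in the replicate block fit. They ranged from 0 to 1 with single libraries left out. Over all genes tested, lower calls were 731 of 16017 with DESeq2 and 1038 of 29418 with no filter. They were 705 of 16017 in the replicate block fit. The log2 fold change of Slc27a1 was -0.47 with DESeq2, -0.48 with no filter and -0.46 in the replicate block fit. It was -0.61 to -0.35 with libraries left out (adjusted p 0.0440 to 0.360 by edgeR). That of Dgat1 was -0.53 to -0.25 with libraries left out.

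Over all genes, higher and lower calls were 189 and 731 with DESeq2, 301 and 1038 with no filter, 10 and 118 with limma on log2(FPKM + 1), 10 and 109 on log2(FPKM + 0.1), and 224 and 705 in the replicate block fit. Lower calls were 195 with total counts only. Higher calls were 100 with the GC and length trend removed and 194 with that trend removed in the replicate block fit. With single libraries left out, higher calls were 5 to 162 and lower calls 34 to 571. The cause was not tested.

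Same-numbered libraries deviated together with correlations of 0.0537, 0.154 and 0.173 across genes. Not all passed 0.1, so the numbers were not taken to pair libraries, although each library correlated best with its own number, a hint from the data.

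Signs that turned belonged to values that missed the threshold. Slc27a2 was 0.0487 with total counts, 0.0730 with the trend removed and 0.0695 with the trend removed and replicate block. Fabp3 was 0.0325 and 0.0254 in the same trend fits. Acsl1 was -0.00599 with the trend removed, Lipa 0.00379 with total counts, Slc5a12 -0.0368 with the trend removed and replicate block, and Alb -0.0464 with limma on log2(FPKM + 0.1). Umod was 0.0304 with total counts, 0.0511 with the trend removed and 0.0346 with the block added. With libraries left out the ranges were -0.231 to 0.0914 for Cd36, -0.113 to 0.0718 for Slc27a2, -0.0154 to 0.0989 for Dgat2, -0.00575 to 0.146 for Acsl5, -0.334 to 0.222 for Lipa, -0.0219 to 0.201 for Acot1, -0.0863 to 0.536 for Lyz2, -0.142 to 0.410 for Slc5a12, -0.201 to 0.0782 for Umod, -0.190 to 0.335 for Nphs1 and -0.0775 to 0.227 for the log2 ratio of Mgll to Pnpla2. The cause was not tested.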
